A study of Mus musculus with 24 samples.

Results

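The genes described here are 10 genes of the Wnt/beta-catenin pathway that act in its feedback loops or are transcribed in response to it, namely Axin2, Nkd1, Notum, Wif1, Znrf3, Rnf43, Apcdd1, Sp5, Lef1 and Tcf7. They were chosen from a list of symbols, and each matched 1 of the 45706 Ensembl gene identifiers in the count tables. RNA-Seq was performed on mouse intestinal organoids, which are cultures of epithelial cells that form crypt-like bodies in a gel, either of small intestinal (SI) or of colonic (COL) origin. All cultures were of strain C57BL/6N and carried Villin::CreERT2, a Cre recombinase driven by the Villin promoter in intestinal epithelium and switched on by 4-hydroxytamoxifen (4-HT). The 3 genotypes were BraffloxV600E/+;Villin::CreERT2 (BRAF), Trp53LSL-R172H/+;Villin::CreERT2 (p53) and the double mutant BraffloxV600E/+;Trp53LSL-R172H/+;Villin::CreERT2 (BRAFp53). BRAFV600E is a constantly active kinase of the ERK pathway and p53R172H a mutant form of the tumor suppressor p53. Organoids were treated for 24 h with ethanol (off) or with 4-HT (on), at 3.5 µM for COL and 0.5 µM for SI, and RNA was taken on day 3 for COL and on day 8 for SI. This gave 12 groups of 2 libraries. Per the methods of the study, each genotype came from 1 donor mouse, so the 2 libraries of a group carry no spread between animals, and a difference between genotypes is also one between cultures.

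Wnt ligands bind Frizzled and Lrp receptors and thereby stop a destruction complex, built on Axin and Apc, from degrading beta-catenin, which then enters the nucleus and activates transcription together with Tcf and Lef factors. In the intestine this pathway maintains the stem cells at the crypt base, and R-spondins reinforce it by binding Lgr receptors and removing the ubiquitin ligases Znrf3 and Rnf43 from the cell surface. Several targets of the pathway dampen it in turn, at the level of the ligand (Notum, Wif1), the receptor (Znrf3, Rnf43, Apcdd1), Dishevelled (Nkd1) or the destruction complex (Axin2), and their transcripts are widely read as a gauge of pathway activity.

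For 7 of the 10 genes RefSeq (GRCm38.p6) gave a promoter window, 12 windows in all. Of these, 3 are shown by the 250 bases before the start of transcription, on the strand of the gene. Axin2 and Rnf43 are shown because they fell together in several cultures, and Sp5 because its window held matches to the Tcf/Lef motif. The windows are chr11:108920099-108920348 (plus strand) for Axin2, chr11:87662837-87663086 (plus strand, the first of 2 starts) for Rnf43 and chr2:70474673-70474922 (plus strand) for Sp5. Those of Axin2 and Sp5 end just before the gene as GENCODE M21 annotates it on GRCm38 (Axin2 at chr11:108920349-108950783 and Sp5 at chr2:70474923-70477729), while that of Rnf43 (gene at chr11:87662722-87735539) overlaps an exon of a transcript with a retained intron. Capitals mark matches to CTTTGAA or CTTTGAT or CTTTGTA or CTTTGTT on either strand.
Axin2: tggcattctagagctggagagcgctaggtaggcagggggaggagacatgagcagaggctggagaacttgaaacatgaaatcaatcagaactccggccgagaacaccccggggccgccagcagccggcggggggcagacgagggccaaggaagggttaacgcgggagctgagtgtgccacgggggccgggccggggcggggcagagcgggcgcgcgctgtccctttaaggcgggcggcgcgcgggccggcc
Rnf43: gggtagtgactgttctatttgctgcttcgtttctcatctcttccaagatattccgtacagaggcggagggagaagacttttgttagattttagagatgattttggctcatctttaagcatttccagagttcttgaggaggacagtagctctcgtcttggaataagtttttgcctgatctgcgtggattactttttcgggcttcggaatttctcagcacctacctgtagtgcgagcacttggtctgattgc
Sp5: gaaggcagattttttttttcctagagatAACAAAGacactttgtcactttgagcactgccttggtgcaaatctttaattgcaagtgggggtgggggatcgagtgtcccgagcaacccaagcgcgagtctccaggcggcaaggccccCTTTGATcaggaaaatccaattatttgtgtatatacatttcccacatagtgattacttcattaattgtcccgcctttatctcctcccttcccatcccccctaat
Sp5 held 2 matches, CTTTGTT on the opposite strand, which begins 222 bases before the start, and CTTTGAT on the gene strand, 104 bases before it. The windows of Axin2 and Rnf43 held none, and the only other match among the 12 windows was a CTTTGTA before the fourth start of Lef1. At least 1 match was present in 16.9% and at least 2 in 1.94% of all 32851 windows of 300 bases, so these matches describe the letters of the windows and not binding.

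COL libraries held 51.2 to 78.2 and SI libraries 44.4 to 68.2 M counts. Levels are given as CPM, read counts relative to library size, which was scaled within each tissue by the trimmed mean of M-values (TMM), so that levels are not strictly comparable between tissues outside the joint tests. A library was read as at the limit of detection at 3 counts, which is 0.0408 to 0.0638 CPM in COL and 0.0437 to 0.0774 CPM in SI. As a check of the labels, Trp53 rose on induction in COL p53 (0.94 ± 0.13 on the log2 scale, edgeR adjusted p = 0.0227), COL BRAFp53 (0.94 ± 0.13, edgeR adjusted p = 0.000623) and SI BRAFp53 (0.52 ± 0.13, edgeR adjusted p = 0.0236). In SI p53 it was at 145.1 CPM off and 245.7 CPM on, which did not pass (0.76 ± 0.13, edgeR adjusted p = 0.194). It fell in COL BRAF (-0.44 ± 0.13, edgeR adjusted p = 0.0332) and SI BRAF (-0.62 ± 0.13, edgeR adjusted p = 0.00351). One library stood apart. SI BRAF on replicate 1 held 770 counts of Xist, against 8 to 27 in the other SI BRAF libraries, which is 12.16% of the median CPM of the SI p53 and BRAFp53 libraries, so tests of SI BRAF were run with and without it. Whether RNA of another SI culture is in this library was not tested. The falls of Axin2, Znrf3 and Rnf43 in SI BRAF had larger fitted values without it than with it, as given beside each, a difference that was not tested. The Y-linked Ddx3y was at 0 to 4 counts in the SI p53 and BRAFp53 libraries and at 1378 counts or more in every other library, COL p53 and BRAFp53 included, so by this measure the SI and COL cultures of these genotypes were not of the same mouse, and SI BRAF differed from the other SI cultures in X- and Y-linked expression too. Each of the marker lists of T cells (5 genes), stroma (5) and endothelium (3) summed to at most 1.86 CPM in any library.

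In the non-induced organoids, 7 of the 10 feedback genes were higher in COL than in SI, and none was lower (edgeR, 3 cultures against 3, adjusted p under 0.05). Over all 17789 genes tested 29.6% passed, 17% higher and 12.6% lower in COL. The median log2 difference was 2.54 over the 10 genes and 0.08 over all genes. COL medium was supplemented with Wnt3a and the GSK3 inhibitor CHIR99021, which activates the pathway below the receptor, and SI medium was not, while both contained R-spondin1. Whether these additions were still present when RNA was taken is not given in the sources used here. Tissue, medium, donor and the day of RNA can therefore not be told apart in these differences.

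Cell type markers differed between the off cultures too, where 17% of all genes were higher and 12.6% lower in COL. Of the 4 stem cell markers Lgr5 (3.18 ± 0.43 on the log2 scale, edgeR adjusted p = 0.00354) and Ascl2 (1.34 ± 0.33, edgeR adjusted p = 0.0225) were higher in COL and Olfm4 was lower (-3.44 ± 0.85, edgeR adjusted p = 0.0228). Of 5 Paneth cell markers 4 were higher in COL, Mmp7 by 5.34 ± 0.59 among them, and of 4 goblet cell markers 3 were higher, Muc2 by 4.70 ± 0.76 among them. The study describes Paneth cells in SI organoids only, so in COL this list gives levels of its genes and not of Paneth cells. Of 5 enterocyte markers 3 were lower in COL, Apoa1 by -3.52 ± 0.27 among them, of 5 general epithelial markers 1 was higher (Cdh1), and of 4 proliferation markers none was called with edgeR, with 1 at an unadjusted p under 0.05 (Top2a). Of 16 other target genes of the pathway 11 were higher in COL and none was lower, with a median log2 difference of 1.16. The part of these markers in the differences of the feedback genes was not tested.

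Lef1, one of the nuclear partners of beta-catenin, was at 1.78 ± 0.451, 9.32 ± 0.893 and 5.13 ± 0.27 CPM (mean ± SD, n = 2) in COL BRAF, BRAFp53 and p53 off, and at 0.159 ± 0.165, 0.257 ± 0.0367 and 0.281 ± 0.105 CPM in the same SI cultures. The log2 difference was 4.25 ± 0.66 (SE, edgeR adjusted p = 0.00512), and the lowest COL library was above the highest SI library. Rnf43, an E3 ubiquitin ligase that removes Frizzled from the surface, ranged from 129.7 to 170.3 CPM in the 6 COL off libraries and from 22.17 to 33.62 CPM in those of SI. Its difference of 2.14 ± 0.16 had the lowest adjusted p of the 10 genes (edgeR, 0.000988). Znrf3, the related ligase, differed by 1.11 ± 0.17 (edgeR adjusted p = 0.00506). These 3 genes kept their call without any of the 6 cultures and under every other setting run.

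Nkd1, which binds Dishevelled, was at 68 to 226 counts per COL off library and at 0 to 10 counts in SI, a log2 difference of 4.87 ± 1.06 (edgeR adjusted p = 0.0151). Sp5, a zinc finger factor that represses Wnt targets, differed by 2.94 ± 0.67 (edgeR adjusted p = 0.0177), Tcf7, the second nuclear partner among the 10, by 1.82 ± 0.42 (edgeR adjusted p = 0.0185) and Axin2, the scaffold of the destruction complex, by 1.20 ± 0.31 (edgeR adjusted p = 0.0278). All of these 4 lost their call when 1 culture was left out. Without SI BRAFp53 off, edgeR adjusted p-values were 0.0557 for Nkd1, 0.0597 for Sp5, 0.0697 for Tcf7 and 0.0998 for Axin2. Without COL BRAFp53 off they were 0.0511 for Nkd1, 0.0612 for Tcf7 and 0.0566 for Axin2, whose difference was then 0.80. Without SI p53 off they were 0.06 for Sp5, 0.0605 for Tcf7 and 0.105 for Axin2, and without SI BRAF off 0.0519 for Sp5.

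Wif1, a secreted protein that binds Wnt ligands, Apcdd1, a membrane inhibitor, and Notum, a secreted enzyme that inactivates Wnt ligands, did not pass with edgeR over all off cultures. Wif1 was at 1 to 156 counts in COL off and at 0 to 16 in SI off (log2 difference 4.20 ± 1.52, edgeR adjusted p = 0.0774), and without SI BRAFp53 off, the only SI culture with counts, adjusted p was 0.0343. Wif1 also passed by DESeq2 (adjusted p = 0.0169) and limma-voom (adjusted p = 0.0474). Apcdd1 was at 1 to 214 counts in COL off and at 0 in all SI BRAFp53 and p53 libraries, on and off (log2 difference 4.02 ± 1.69, edgeR adjusted p = 0.116). Without SI BRAF off every SI library left was at 0, and its adjusted p was 0.0319. For Notum the difference was 0.49 ± 1.13 (edgeR adjusted p = 0.777).

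**Figure D1:**
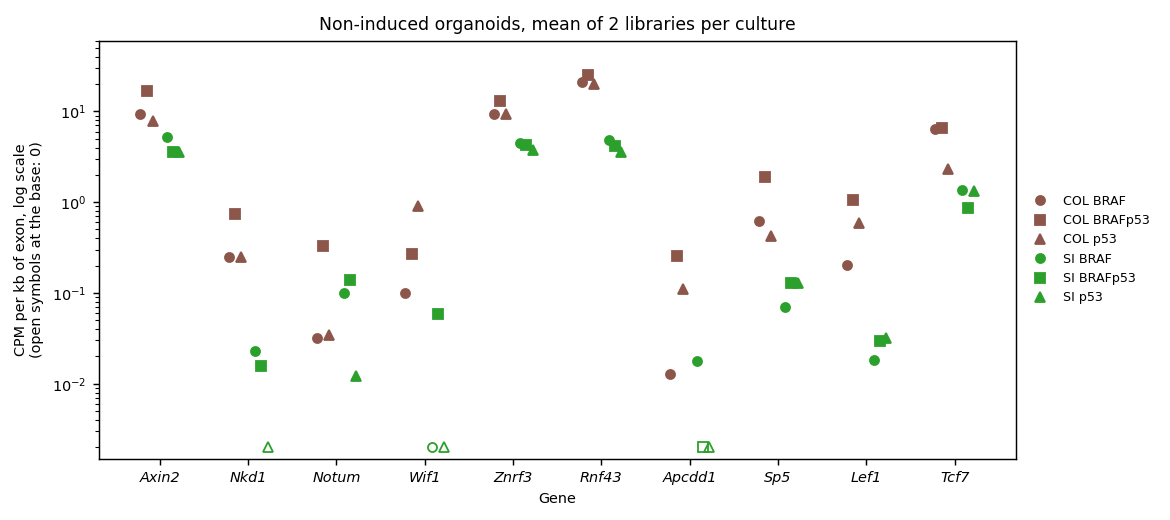
Level of each feedback gene in the non-induced cultures, as mean CPM of 2 libraries per kilobase of exon on a log scale, with COL in brown, SI in green and the genotype by symbol. CPM was scaled within each tissue. Rnf43, Znrf3, Axin2 and Tcf7 lead the order in both tissues, and all other genes lie under 0.2 in SI.

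Per kilobase of exon, a scale on which genes can be compared, Rnf43 had the highest off level in COL (20.01 to 25.14 CPM per kb over the 3 cultures), followed by Axin2 (7.79 to 16.78), Znrf3 (9.37 to 13.17) and Tcf7 (2.34 to 6.48). The ranges of Axin2 and Znrf3 overlapped, and the other 6 genes had culture means of at most 1.90. In SI off, Rnf43 (3.58 to 4.85), Znrf3 (3.71 to 4.53) and Axin2 (3.56 to 5.24) did not differ beyond the spread of the cultures, Tcf7 followed at 0.866 to 1.37, and the other 6 were at most at 0.140. Among the COL cultures BRAFp53 had the highest mean off level of every feedback gene but Wif1, though for Tcf7 its libraries enclosed those of COL BRAF. For Axin2 it was at 92.4 ± 4.12 CPM, against 52.0 ± 0.483 in COL BRAF and 42.9 ± 0.738 in COL p53 (n = 2), with no overlap of libraries.

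Axin2, Znrf3 and Rnf43 fell upon induction in COL BRAF, COL BRAFp53 and SI BRAF organoids. In COL BRAF 4 genes fell and 1 rose (edgeR adjusted p under 0.05), and over all 18972 genes tested 19.9% passed, 9.61% lower and 10.3% higher. In COL BRAFp53 5 fell and none rose, with a background of 17.7%, of which 7.76% were lower and 9.95% higher. In SI BRAF 3 of the 8 genes tested fell, with a background of 31.7% of 16856 genes (14.2% lower, 17.5% higher), and in SI BRAFp53 none passed, with a background of 11.5% (4.53% lower, 6.98% higher). The median log2 fold change over the genes tested was -0.35, -0.85, -0.06 and -0.25 in these 4 arms, beside -0.01, -0.04, -0.06 and -0.03 over all genes. In SI BRAF without on replicate 1 the median was -0.50 over the same 8 genes, Wif1 with off libraries at 0 among them, and -1.33 over the 10 genes then tested, of which 4 fell, beside -0.06 over all genes and a background of 29.7%. These backgrounds depend on single libraries. With each library of the arm left out in turn they were 9.59% to 12.1% in COL BRAF, 8.26% to 11.7% in COL BRAFp53, 19.8% to 29.7% in SI BRAF and 4.95% to 7.38% in SI BRAFp53.

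In the p53 cultures, which carry the same Cre transgene and received the 4-HT dose of their tissue, no feedback gene passed. In COL p53 0.142% of all genes were called (0.0316% higher, 0.111% lower) and 1 feedback gene had an unadjusted p under 0.05 (Tcf7), and in SI p53 0% were called and 2 had (Lef1 and Notum). DESeq2 and limma-voom called none of the genes tested in either p53 arm, which were 10 in COL and 8 in SI. For SI BRAFp53 1 gene, Rnf43, had an unadjusted p under 0.05, and DESeq2 and limma-voom called that gene. In SI, Nkd1 and Apcdd1, with at most 10 and 26 counts in any library, did not pass the filter on low counts and were not tested.

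**Figure D2:**
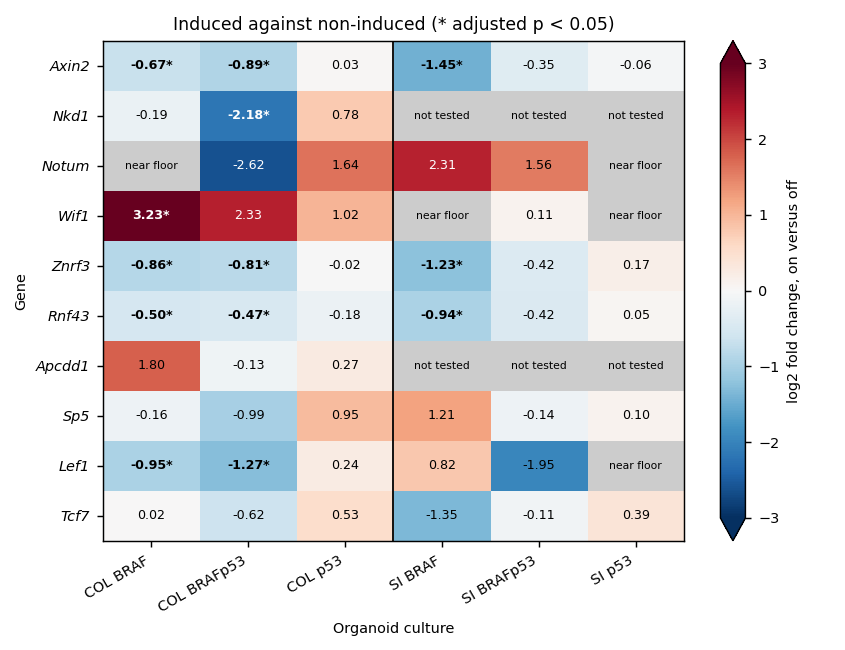
Log2 fold change of each feedback gene, on versus off, in the 6 cultures, with red higher and blue lower on and an asterisk for adjusted p under 0.05. Grey cells were not tested or had at most 6 counts in all in one of the groups; the asterisks of Axin2, Znrf3 and Rnf43 fall in COL BRAF, COL BRAFp53 and SI BRAF.

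Axin2 was at 51.69 and 52.37 CPM in the COL BRAF off libraries and at 29.79 and 35.80 CPM on, a log2 fold change of -0.67 ± 0.15 (SE, edgeR adjusted p = 0.00853). In COL BRAFp53 it was at 95.32 and 89.50 CPM off and at 44.60 and 54.86 CPM on, 53.8% of the off level (-0.89 ± 0.15, edgeR adjusted p = 0.00189). Libraries on and off did not overlap in either culture. The induced COL BRAFp53 libraries enclosed the non-induced ones of COL BRAF. Without COL BRAF on replicate 1 the change in COL BRAF was -0.55 (edgeR adjusted p = 0.0931), and the change in COL BRAFp53 was called without any single library.

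In SI BRAF, Axin2 was at 26.88 and 30.77 CPM off and at 12.04 and 9.03 CPM on, 36.6% of the off level. This was the largest fall of Axin2 among the 6 cultures (-1.45 ± 0.18, edgeR adjusted p = 4.09e-05), and it was -1.65 ± 0.20 without SI BRAF on replicate 1 (edgeR adjusted p = 3.61e-05). In SI BRAFp53 both on libraries (15.88 and 14.96 CPM) were below both off libraries (17.38 and 21.98 CPM), but the change of -0.35 ± 0.17 did not pass (edgeR adjusted p = 0.228). Axin2 shares 209 exonic bases with the antisense gene Gm11670, from which its reads cannot be told apart without strand. In p53 cultures its fold change was 0.03 ± 0.15 in COL (edgeR adjusted p = 0.994) and -0.06 ± 0.17 in SI (edgeR adjusted p = 1).

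Nkd1 showed its change in COL BRAFp53, from 3.27 and 3.46 CPM off to 0.612 and 0.877 CPM on (-2.18 ± 0.43, edgeR adjusted p = 0.00485). The call was lost without COL BRAFp53 on replicate 1 (-1.92, edgeR adjusted p = 0.0574). In COL BRAF its on libraries (0.719 and 1.26 CPM) lay on both sides of the off libraries (1.06 and 1.19 CPM), and the fold change was -0.19 ± 0.42 (edgeR adjusted p = 0.818). In COL p53 it was at 1.09 and 1.16 CPM off and at 1.39 and 2.46 CPM on (0.78 ± 0.41, edgeR adjusted p = 0.68). In SI no library held more than 10 counts of Nkd1.

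**Figure D3:**
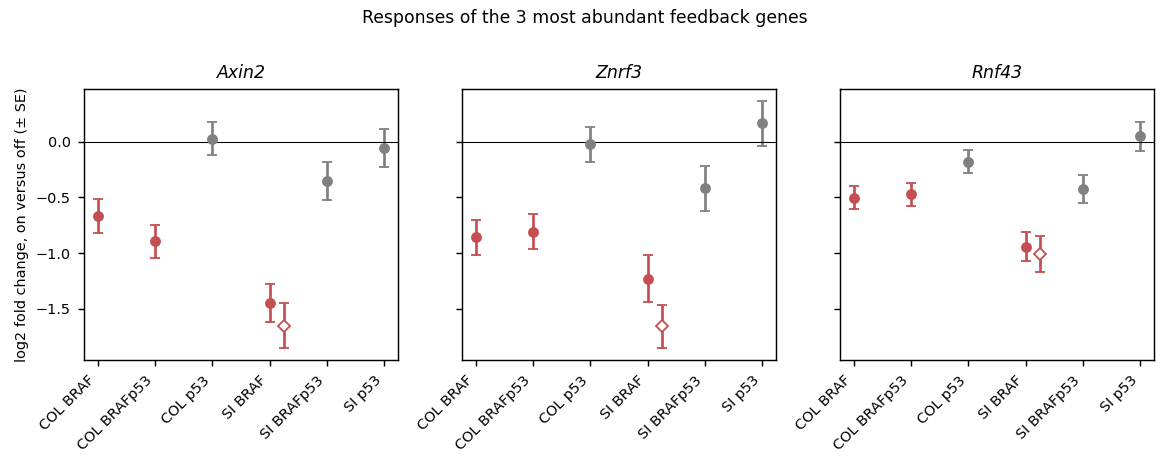
Log2 fold change (on versus off, points) with its SE (bars) for Axin2, Znrf3 and Rnf43 in the 6 cultures, in red where adjusted p was under 0.05 and grey otherwise. Open diamonds give SI BRAF without on replicate 1; the points of the p53 cultures lie near 0, and those of SI BRAF are the lowest of each gene.

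Znrf3 fell in COL BRAF from 75.50 and 72.36 CPM off to 36.11 and 45.48 CPM on (-0.86 ± 0.16, edgeR adjusted p = 0.00278), and this call held without any single library. In COL BRAFp53 it fell from 109.8 and 98.15 to 51.13 and 67.69 CPM (-0.81 ± 0.16, edgeR adjusted p = 0.00453), though without on replicate 1 it was at -0.60 (edgeR adjusted p = 0.0561). In SI BRAF it fell from 39.48 and 32.05 to 19.21 and 11.18 CPM (-1.23 ± 0.21, edgeR adjusted p = 0.000586). The higher of these on libraries is the one that stood apart, and without it the change was -1.66 ± 0.19 (edgeR adjusted p = 2.72e-05). In SI BRAFp53 libraries of Znrf3 did not overlap either, but the change of -0.42 ± 0.20 did not pass (edgeR adjusted p = 0.231).

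Rnf43 had smaller fold changes than Znrf3 in these 3 cultures, a difference that was not tested. It went from 138.4 and 136.0 CPM off to 94.82 and 98.85 CPM on in COL BRAF, 70.6% of the off level (-0.50 ± 0.10, edgeR adjusted p = 0.00479). In COL BRAFp53 it went from 159.5 and 170.3 to 112.6 and 125.2 CPM (-0.47 ± 0.10, edgeR adjusted p = 0.00792). The first of these calls held without any single library, and the second was lost without COL BRAFp53 off replicate 2 (edgeR adjusted p = 0.0577) or on replicate 1 (edgeR adjusted p = 0.0934). In SI BRAF Rnf43 went from 29.98 and 33.62 CPM off to 17.49 and 15.61 CPM on (-0.94 ± 0.13, edgeR adjusted p = 0.000131), and the change was -1.01 ± 0.16 without on replicate 1 (edgeR adjusted p = 0.000361). In SI BRAFp53 the 4 libraries lay close together within each state (27.31 and 26.96 CPM off, 20.57 and 19.89 CPM on), and the change of -0.42 ± 0.13 was just outside the threshold (edgeR adjusted p = 0.0511). It passed under 3 alternatives, with adjusted p of 0.0261 by DESeq2, 0.0418 by limma-voom and 0.0455 with a minimum of 10 counts in every library. In COL p53 both on libraries of Rnf43 were also below both off libraries, with means of 116.0 and 131.2 CPM. That change did not pass (-0.18 ± 0.10, edgeR adjusted p = 0.713). The COL BRAF and BRAFp53 responses of Rnf43 were not called different from that of p53 (-0.32 ± 0.14 and -0.29 ± 0.14, edgeR adjusted p = 0.236 and 0.286).

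Apcdd1, which also acts at the membrane, did not pass in any culture with edgeR, all libraries and the filter on low counts. It was at 20 and 1 counts in COL BRAF off and at 41 and 23 counts on (1.80 ± 0.75, edgeR adjusted p = 0.12). Without COL BRAF off replicate 1, which left an off library of 1 count, its adjusted p was 0.00769, and it was 0.0391 by DESeq2 and 0.0157 with no filter on low counts. In COL BRAFp53 the on libraries differed from each other (1.74 and 4.23 CPM) and enclosed the off libraries (3.32 and 3.23 CPM).

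Wif1 was the feedback gene that rose. In COL BRAF it was at 0.466 and 0.0175 CPM off (30 and 1 counts) and at 3.21 and 1.45 CPM on (192 and 68 counts), a log2 fold change of 3.23 ± 0.86 (edgeR adjusted p = 0.0205). The call was lost without COL BRAF on replicate 1 (2.52, edgeR adjusted p = 0.125) or off replicate 2 (2.32, edgeR adjusted p = 0.0682). In COL BRAFp53 it was at 0.528 and 0.764 CPM off and at 4.93 and 1.55 CPM on (2.33 ± 0.80, edgeR adjusted p = 0.0649). The on libraries lay far apart there. Without on replicate 1 the change was 1.28 (edgeR adjusted p = 0.431), and without on replicate 2 it was 2.93 (edgeR adjusted p = 0.0394). The rise also passed by DESeq2 (2.34, adjusted p = 0.00873) and with no filter on low counts (edgeR adjusted p = 1.61e-05). In COL p53 it was at 2.04 and 2.32 CPM off and at 5.09 and 3.74 CPM on (1.02 ± 0.75, edgeR adjusted p = 0.817). On libraries were thus above off libraries in all 3 COL cultures, p53 included, and the COL BRAF and BRAFp53 responses were not shown to differ from that of p53 (edgeR adjusted p = 0.308 and 0.562). In SI Wif1 held at most 16 counts.

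Notum did not pass in any culture with these settings either. In SI BRAF it was at 21 and 2 counts off and at 39 and 59 on (2.31 ± 0.995, edgeR adjusted p = 0.0968), and it was at 2.73 ± 1.12 without on replicate 1 (edgeR adjusted p = 0.0872). Without SI BRAF off replicate 1, which left an off library of 2 counts, it passed (edgeR adjusted p = 0.0165), as it did by limma-voom (3.13 ± 0.98, adjusted p = 0.0242) and with no filter (edgeR adjusted p = 0.00931). SI BRAFp53 libraries did not overlap either, with 28 and 10 counts off and 47 and 75 on (1.56 ± 0.95, edgeR adjusted p = 0.353), and SI p53 had 0 and 4 counts off and 22 and 10 on. In COL BRAFp53 it was lower on, with 43 and 60 counts off and 16 and 2 on (-2.62 ± 1.57, edgeR adjusted p = 0.285). Notum shares 708 exonic bases with the antisense gene Notumos and 210 with Myadml2os, so part of these few reads may belong to them.

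**Figure D4:**
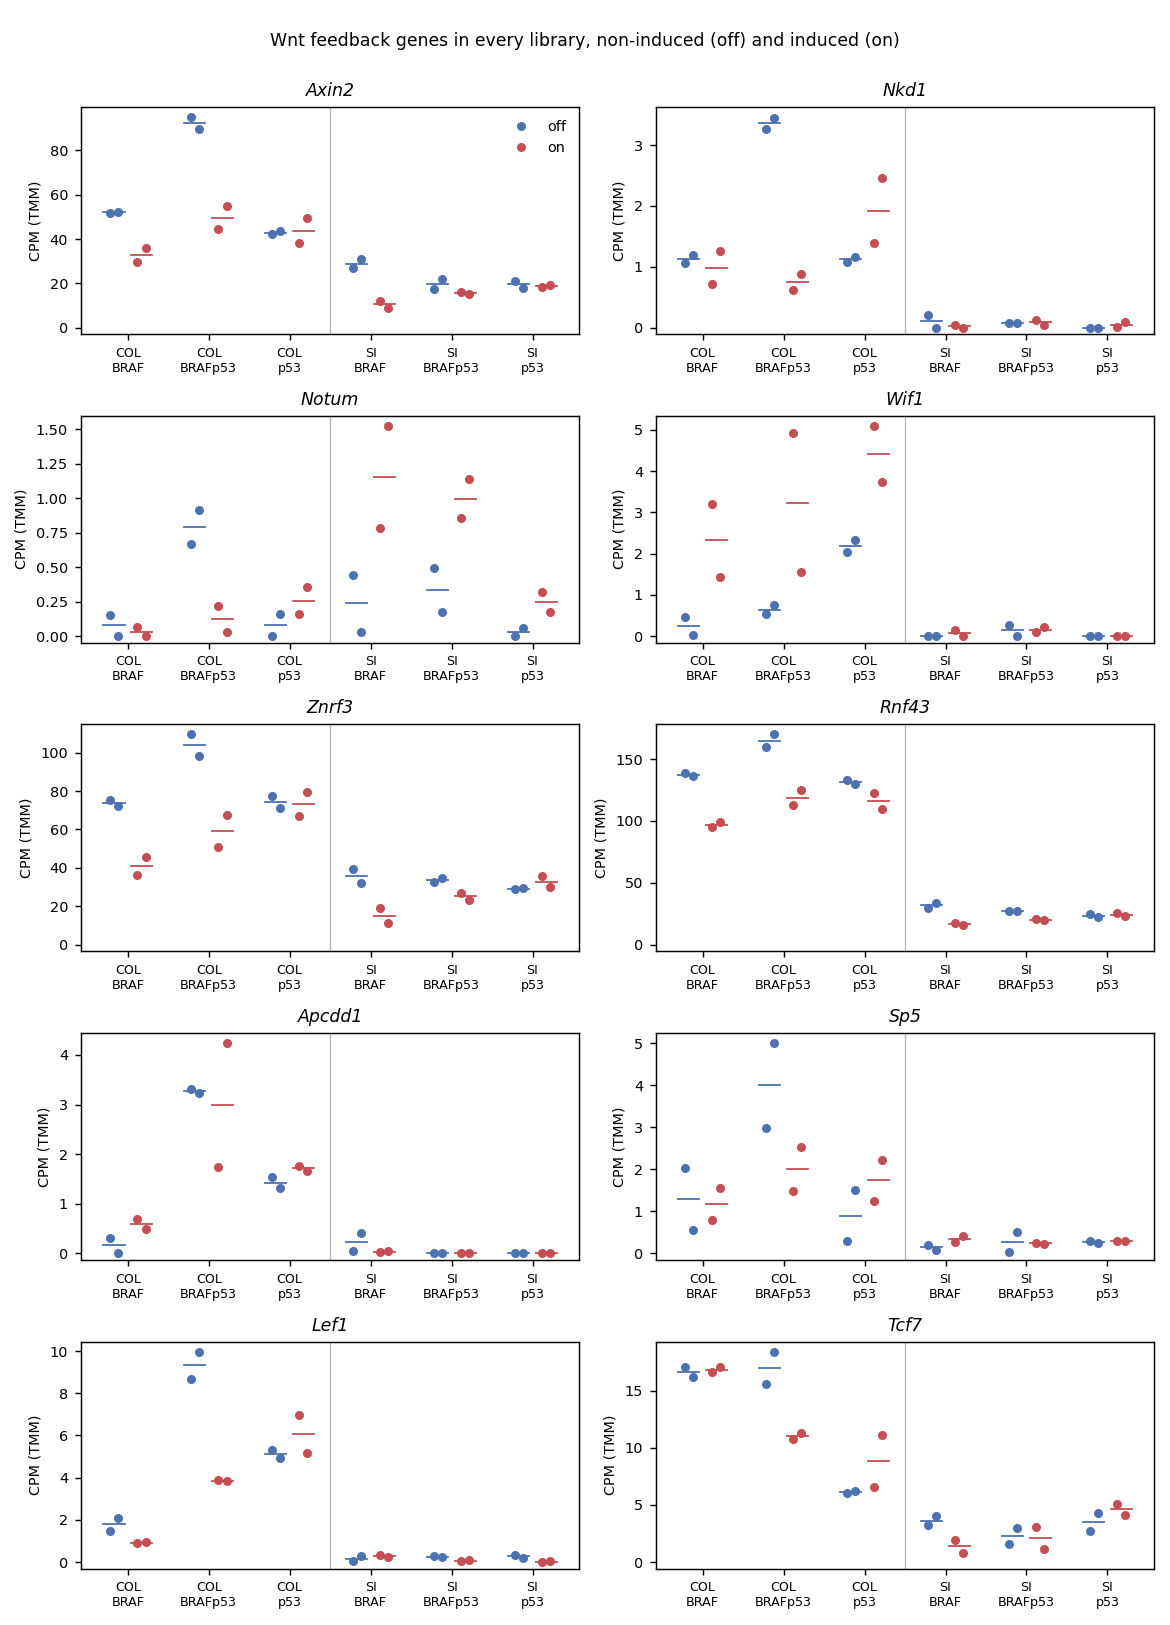
Each feedback gene in all 24 libraries, as CPM scaled within each tissue, with non-induced libraries in blue, induced libraries in red and the group mean as a line; each panel has its own axis. Axin2, Znrf3 and Rnf43 on are below off in the 4 cultures with BRAFV600E, and Rnf43 also in COL p53. Nkd1, Wif1, Apcdd1, Sp5 and Lef1 are near 0 in SI.

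Lef1 went from 1.46 and 2.10 CPM off to 0.903 and 0.936 CPM on in COL BRAF (-0.95 ± 0.27, edgeR adjusted p = 0.0282). Of the 5 genes called in that culture it was the least stable, with an adjusted p of 0.208 without off replicate 2, 0.129 without on replicate 1, 0.0955 without on replicate 2 and 0.165 by limma-voom. In COL BRAFp53 it went from 8.69 and 9.95 to 3.88 and 3.84 CPM (-1.27 ± 0.25, edgeR adjusted p = 0.00481), and this call held without any single library. In COL p53 it was at 5.33 and 4.94 CPM off and at 6.95 and 5.15 CPM on (0.24 ± 0.25, edgeR adjusted p = 0.896). In SI Lef1 held 1 to 24 counts per library, and in SI p53 it was at 24 and 14 counts off and 1 and 2 counts on, with an adjusted p of 0.684 (edgeR). Lef1 shares 1208 exonic bases with the antisense gene Gm43352.

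Tcf7, which has isoforms that activate and isoforms that repress Wnt targets, did not pass in any culture with edgeR, all libraries and the filter on low counts. In COL BRAF it was at 17.08 and 16.17 CPM off and at 16.63 and 17.02 CPM on (0.02 ± 0.21, edgeR adjusted p = 0.977). In SI BRAF it was at 3.20 and 4.00 CPM off and at 1.96 and 0.826 CPM on (-1.35 ± 0.49, edgeR adjusted p = 0.0521). Without SI BRAF on replicate 1 the latter passed (-2.10 ± 0.60, edgeR adjusted p = 0.0169), as it did by DESeq2 (-1.32, adjusted p = 0.0225), with a minimum of 10 counts (edgeR adjusted p = 0.0334) and with no filter (0.000604). In COL BRAFp53 Tcf7 was at 15.61 and 18.41 CPM off and at 10.78 and 11.33 CPM on (-0.62 ± 0.21, edgeR adjusted p = 0.0659), with adjusted p of 0.0357 by DESeq2, 0.0461 by limma-voom and 0.0381 with no filter. In COL p53 it was at 6.06 and 6.21 CPM off and at 6.55 and 11.10 CPM on (0.53 ± 0.22, edgeR adjusted p = 0.53).

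Sp5 did not pass in any culture with edgeR. Its libraries differed widely within groups, with 131 and 32 counts in COL BRAF off and 20 and 101 in COL p53 off. In COL BRAFp53 both on libraries (1.497 and 2.528 CPM) were below both off libraries (2.995 and 4.999 CPM), at -0.99 ± 0.72 (edgeR adjusted p = 0.387). In SI it held 2 to 28 counts per library.

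Libraries on lay below libraries off for 8 of the 10 genes in COL BRAFp53, where this held for 29.4% of all genes tested, and Wif1 lay above, as did 27.6% of all genes. In COL BRAF 4 genes lay below and 2 above (30.7% and 29.3% of all genes), in SI BRAF 4 and 2 of the 8 genes tested (32.9% and 30.3%), and in SI BRAFp53 4 and 1 of 8 (28.2% and 26.6%). In COL p53 1 gene, Rnf43, lay below and 4 above (19.6% and 19.4%). In SI p53 1 of the 8 genes tested, Lef1, lay below and 2 above (17.4% and 18.1%).

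Stem cell markers fell too where Axin2, Znrf3 and Rnf43 fell. The summed level of 4 stem cell markers (Lgr5, Olfm4, Smoc2, Ascl2) was 292.6 to 369.8 CPM off and 82.71 to 121.7 CPM on in COL BRAF, 426.4 to 540.6 and 108.5 to 152.4 CPM in COL BRAFp53, and 325.7 to 356.3 and 38.25 to 129.1 CPM in SI BRAF. In SI BRAFp53 it was 270.7 to 378.8 and 180 to 206.2 CPM, and in the p53 cultures the on and off libraries overlapped in COL and in SI. Of these 4 markers 3 fell in COL BRAF, 3 in COL BRAFp53, 4 in SI BRAF and 1 in SI BRAFp53. Lgr5 and Ascl2 are also among the other pathway genes described below, so the lists are not independent. Beside all marker counts here, 9.61%, 7.76%, 14.2% and 4.53% of all genes fell in these arms. In the same order, 10.3%, 9.95%, 17.5% and 6.98% rose. Markers of proliferation (Mki67, Top2a, Pcna, Mcm5) fell in 4, 2, 3 and 0 of 4 cases in the same order. Of 5 Paneth cell markers 3 fell in SI BRAF, from 329.8 to 353.5 CPM in sum off to 98.15 to 129.5 CPM on, and of 5 enterocyte markers 3 rose there, from 5664 to 7424 CPM off to 25290 to 27530 CPM on. When SI BRAF on replicate 1 was left out, the same numbers of stem cell, proliferation and Paneth markers fell there, and of the enterocyte markers 3 rose and 1 fell. Of the genes on the Paneth list, which in COL are not read as Paneth cells, 1 rose in COL BRAF, 1 in COL BRAFp53 and 2 in SI BRAFp53. Of the enterocyte markers 1 rose and 1 fell in COL BRAF, 1 fell in COL BRAFp53 and in COL p53, and 2 rose and 2 fell in SI BRAFp53. Of 4 goblet cell markers (Muc2, Clca1, Fcgbp, Spink4) 3 rose in COL BRAF, 3 in COL BRAFp53, 2 in SI BRAF, with and without on replicate 1, and 4 in SI BRAFp53, and none was called in the p53 cultures. Their sum went from 857.5 to 946.9 CPM off to 1807 to 2049 CPM on in COL BRAF and from 353.3 to 361.1 to 769.4 to 944.5 CPM in SI BRAFp53. Of 5 general epithelial markers (Epcam, Vil1, Krt8, Krt20, Cdh1) 4 rose in COL BRAF, 4 in COL BRAFp53, 5 in SI BRAF, with and without on replicate 1, and 3 in SI BRAFp53, none fell, and none was called in the p53 cultures. Their sum went from 6208 to 6432 CPM off to 13760 to 15170 CPM on in COL BRAF and from 5040 to 5174 to 10700 to 12010 CPM in SI BRAF. Krt8 was the largest part of this sum, with means of 4100 CPM off and 10490 CPM on in COL BRAF and 3356 and 5984 CPM in SI BRAF. Epcam was not called in COL BRAF (0.18 ± 0.10, edgeR adjusted p = 0.251). In these bulk libraries fewer cells of a type and less RNA per cell cannot be told apart, and the part of these markers in the falls of Axin2, Znrf3 and Rnf43 was not tested.

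The comparison of responses asked whether a change differed between genotypes. It was made against p53, and the comparisons share the p53 libraries. Genotype cannot be told apart from donor culture here, nor for SI BRAF from the X- and Y-linked difference given above. In SI the BRAF response was below the p53 response for 3 genes (17.7% of all genes called, 6.5% lower and 11.2% higher), by -1.39 ± 0.24 for Axin2 (edgeR adjusted p = 0.00173), -0.99 ± 0.18 for Rnf43 (edgeR adjusted p = 0.00254) and -1.40 ± 0.29 for Znrf3 (edgeR adjusted p = 0.00513). These 3 calls held without any single library. Without SI BRAF off replicate 2 Lef1 passed too (edgeR adjusted p = 0.0458), on libraries of at most 24 counts. Without SI BRAF on replicate 1 the differences were -1.61 ± 0.25, -1.07 ± 0.20 and -1.84 ± 0.24, and Tcf7 passed as well (-2.51 ± 0.72, edgeR adjusted p = 0.0238, against -1.75 ± 0.68 and 0.0953 with that library). For SI BRAFp53 less p53 none passed (4.36% of all genes called, 1.57% lower and 2.79% higher), 1 gene had an unadjusted p under 0.05 (Rnf43, -0.47 ± 0.18, edgeR adjusted p = 0.188), and DESeq2 and limma-voom called 0.

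In COL the BRAFp53 response was below the p53 response for Nkd1 (-2.95 ± 0.59, edgeR adjusted p = 0.0229), Axin2 (-0.92 ± 0.21, edgeR adjusted p = 0.0349) and Lef1 (-1.51 ± 0.35, edgeR adjusted p = 0.037), where 3.9% of all genes were called, 1.35% lower and 2.55% higher. These calls depended on single libraries. That of Lef1 was lost without any 1 of the 8 libraries (edgeR adjusted p 0.0579 to 0.132), that of Axin2 without 6 of them, the exceptions being BRAFp53 on replicate 2 and p53 on replicate 1 (0.0705 to 0.152), and that of Nkd1 without BRAFp53 off replicate 2, BRAFp53 on replicate 1, either p53 off library or p53 on replicate 2 (0.0555 to 0.0981). Without COL p53 on replicate 1, Tcf7 (edgeR adjusted p = 0.00584) and Znrf3 (edgeR adjusted p = 0.0479) passed, and without BRAFp53 on replicate 2 Znrf3 passed (edgeR adjusted p = 0.0293). The COL BRAF response was not called different from that of p53 for any of the 10 genes (4.51% of all genes called, 1.61% lower and 2.9% higher), though 4 had an unadjusted p under 0.05, and DESeq2 called 3 and limma-voom 1. Znrf3 came nearest (-0.84 ± 0.22, edgeR adjusted p = 0.0554), followed by Axin2 (-0.70 ± 0.21, edgeR adjusted p = 0.087). Without COL p53 on replicate 1 both passed (edgeR adjusted p = 0.0346 and 0.0294).

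The comparison of the double mutant with BRAF sets 1 donor culture against another, so p53R172H and donor cannot be told apart in it. In SI these cultures also differed in X- and Y-linked expression. In SI, where Axin2 fell in the BRAF culture and did not pass in the BRAFp53 culture, its BRAFp53 response was above its BRAF response by 1.10 ± 0.24 (edgeR adjusted p = 0.0146), where 8.2% of all genes were called, 1.93% higher and 6.28% lower. The call was lost without SI BRAF off replicate 2 (edgeR adjusted p = 0.0718), SI BRAFp53 off replicate 1 (edgeR adjusted p = 0.0809) or SI BRAFp53 on replicate 1 (edgeR adjusted p = 0.0518). Without SI BRAF on replicate 1 it was 1.32 ± 0.25 (edgeR adjusted p = 0.00427), and Znrf3, at 0.81 ± 0.29 with all libraries (edgeR adjusted p = 0.11), passed at 1.26 ± 0.24 (edgeR adjusted p = 0.00455). In COL none of the 10 genes was called in this comparison (0.907% of all genes called, 0.532% higher and 0.374% lower), 1 had an unadjusted p under 0.05 (Nkd1, -1.99 ± 0.60, edgeR adjusted p = 0.111), DESeq2 called 1 and limma-voom 0. For Axin2 in COL the difference was -0.23 ± 0.21 (edgeR adjusted p = 0.606).

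Between tissues, the BRAF response of Axin2 was less negative in COL than in SI by 0.74 ± 0.23 (edgeR adjusted p = 0.0462), with 10.7% of all 19673 genes called, 3.31% higher and 7.4% lower. It was at 0.95 ± 0.25 without SI BRAF on replicate 1 (edgeR adjusted p = 0.0215). The call was lost without any of 6 libraries, namely both COL BRAF off libraries (edgeR adjusted p = 0.116 and 0.112), COL BRAF on replicate 2 (0.19), both SI BRAF off libraries (0.0591 and 0.172) and SI BRAF on replicate 2 (0.185), and by limma-voom (adjusted p = 0.0822). Medium, dose and day cannot be told apart from tissue here. Without SI BRAF off replicate 2 Lef1 passed (edgeR adjusted p = 0.00877), against SI libraries of at most 17 counts, and Apcdd1, which SI BRAF held at 1 to 26 counts, passed without COL BRAF off replicate 1 or SI BRAF off replicate 1 (edgeR adjusted p = 0.0136 and 0.0279). For BRAFp53 and p53 no gene was called (3.52% of all genes for BRAFp53, 1.39% higher and 2.13% lower, and 0.117% for p53, 0.0102% higher and 0.107% lower), with 2 and 1 genes at an unadjusted p under 0.05, DESeq2 calling 0 and 1 and limma-voom 0 and 0.

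The genes most like Axin2 were sought among 8286 genes by the root mean square difference of the group means (log2 CPM, centered within each tissue) over the 12 groups. They were Pgm2l1 (0.156), Ska3 (0.156), Amot (0.161), Sox9 (0.162) and Dtx4 (0.163), and the median over all candidates was 0.502. Among the feedback genes Znrf3 ranked 26 (0.21) and Rnf43 29 (0.214). Groups of a tissue share their donor cultures, so this is a description of 12 means. Ranked on the 6 log2 fold changes alone, 1 of the 5 nearest genes was the same (Dtx4), and Znrf3 ranked 8 and Rnf43 117.

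Of 102 other genes of the pathway, listed by role, 86 were tested in COL and 71 in SI. In COL BRAF 10 rose and 14 fell, in COL BRAFp53 2 rose and 16 fell, in SI BRAF 4 rose and 22 fell, and in SI BRAFp53 3 rose and 4 fell, with 0 called in both p53 arms, where 11 had an unadjusted p under 0.05 in COL and 3 had in SI. Over all genes 19.9%, 17.7%, 31.7% and 11.5% were called in the 4 arms with BRAFV600E. The median log2 fold change of the pathway genes in these arms was 0.10, -0.27, -0.37 and -0.06, beside -0.01, -0.04, -0.06 and -0.03 over all genes. Without SI BRAF on replicate 1, 5 of 77 rose and 23 fell in SI BRAF, with a median of -0.50.

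Among receptors, Lgr5, the R-spondin receptor that marks crypt base stem cells and is also in the stem cell list above, fell in 3 of these arms. It went from 173.2 ± 8.73 to 53.1 ± 8.83 CPM in COL BRAF (-1.71 ± 0.21, edgeR adjusted p = 0.000226), from 269.7 ± 39.7 to 75.8 ± 15.2 CPM in COL BRAFp53 (-1.83 ± 0.21, edgeR adjusted p = 0.000185) and from 17.9 ± 2.84 to 3.41 ± 1.64 CPM in SI BRAF (-2.38 ± 0.30, edgeR adjusted p = 6.03e-05). In SI BRAFp53 it was at -0.79 ± 0.27 (edgeR adjusted p = 0.0836). Lgr4, its relative, fell in all 4 of these arms, by -0.59 ± 0.13 in COL BRAF (edgeR adjusted p = 0.00644), -0.44 ± 0.13 in COL BRAFp53 (0.0311), -0.75 ± 0.12 in SI BRAF (0.000449) and -0.47 ± 0.12 in SI BRAFp53 (0.0238). The co-receptor Lrp5 rose in COL BRAF (0.78 ± 0.19, edgeR adjusted p = 0.0134) and SI BRAF (0.55 ± 0.19, edgeR adjusted p = 0.0416), where the call was lost without on replicate 1 (0.63 ± 0.23, edgeR adjusted p = 0.0531). Without that library Lgr5 was at -2.97 ± 0.33 and Lgr4 at -0.83 ± 0.15 in SI BRAF, both called. Wnt3, the ligand made by Paneth cells and 1 of the 5 Paneth markers above, fell in SI BRAF from 3.92 ± 1.08 to 0.763 ± 0.678 CPM (-2.33 ± 0.53, edgeR adjusted p = 0.00455), and was at -3.76 ± 0.59 without on replicate 1 (edgeR adjusted p = 0.000293).

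Ctnnb1, which encodes beta-catenin, rose where Axin2 fell, by 0.58 ± 0.12 in COL BRAF (edgeR adjusted p = 0.00428), 0.46 ± 0.12 in COL BRAFp53 (edgeR adjusted p = 0.0177) and 0.37 ± 0.10 in SI BRAF (edgeR adjusted p = 0.0137). In SI BRAFp53 it was at 0.32 ± 0.10 (edgeR adjusted p = 0.0605). Amer1, a partner of the destruction complex, fell in COL BRAFp53 (-0.95 ± 0.19) and SI BRAF (-1.30 ± 0.18, edgeR adjusted p = 0.000106). With SI BRAF on replicate 1 left out, Ctnnb1 was at 0.38 ± 0.12 (edgeR adjusted p = 0.032) and Amer1 at -1.46 ± 0.21 (edgeR adjusted p = 0.000168). Kremen2, a receptor for Dkk inhibitors, rose in COL BRAF (1.91 ± 0.45, edgeR adjusted p = 0.0113) and COL BRAFp53 (2.09 ± 0.48, edgeR adjusted p = 0.0108).

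Of the 16 other target genes, 5 fell and 2 rose in COL BRAF, 8 fell in COL BRAFp53, 12 fell in SI BRAF, and 2 fell and 1 rose in SI BRAFp53. Over all genes 9.61%, 7.76%, 14.2% and 4.53% fell in these arms, and 10.3%, 9.95%, 17.5% and 6.98% rose. In SI BRAF 12 fell also without on replicate 1. Ascl2, a stem cell factor, fell in SI BRAF from 13.55 ± 1.19 to 1.81 ± 0.842 CPM (-2.88 ± 0.36, edgeR adjusted p = 4.91e-05) and in SI BRAFp53 from 16.99 ± 6.28 to 6.66 ± 2.74 CPM (-1.35 ± 0.32, edgeR adjusted p = 0.0151). Cdca7 fell in COL BRAF (-1.58 ± 0.23, edgeR adjusted p = 0.000619), COL BRAFp53 (-1.02 ± 0.22, edgeR adjusted p = 0.00832) and SI BRAF (-0.97 ± 0.31, edgeR adjusted p = 0.0276). Leaving out on replicate 1, the changes in SI BRAF were -1.83 ± 0.19 for Cdca7 and -3.46 ± 0.44 for Ascl2, both called. Cd44 (0.79 ± 0.13, edgeR adjusted p = 0.00121) and Ephb2 (0.58 ± 0.12, edgeR adjusted p = 0.00529), both also read as Wnt targets, rose in COL BRAF, where Axin2 fell. Ephb2 also rose in SI BRAFp53 (0.56 ± 0.17, edgeR adjusted p = 0.048).

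**Figure D5:**
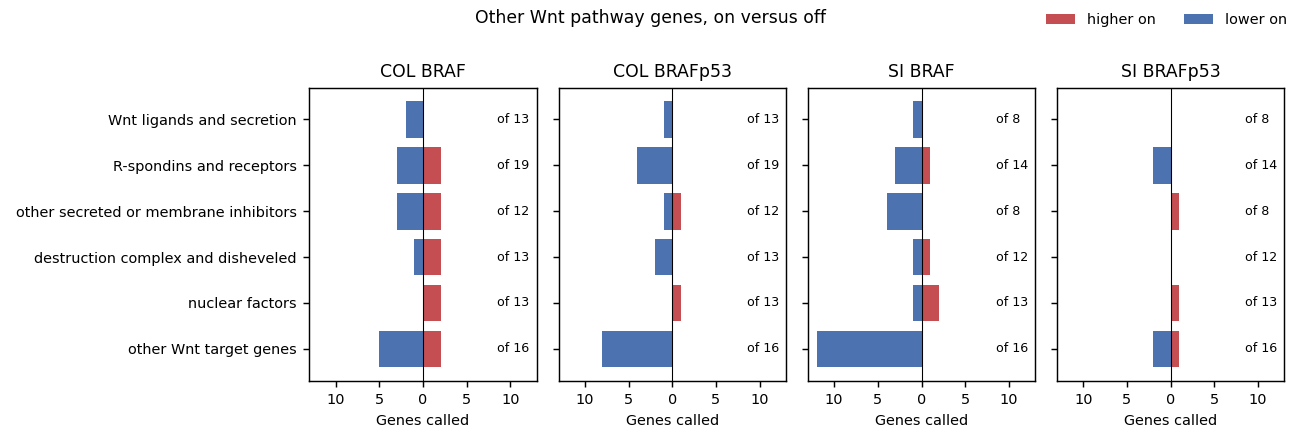
Number of other Wnt pathway genes called lower (blue, left) or higher (red, right) on than off, by role, in the 4 cultures with BRAFV600E, with the number tested at the right of each panel. The longest bar is that of other Wnt target genes in SI BRAF, with 12 of 16 lower.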

How the data were processed

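The authors deposited raw read counts per gene, not normalized, as a table per tissue with a column per library. Per the submitters' processing notes, Trimmomatic 0.36 and STAR 2.5.2b were used, with mm10 (mm9 is also listed). Which annotation release was used, and whether counting was stranded, is not given in the sources used here. Of 45706 identifiers 45143 matched GENCODE M21, and coordinates are of GRCm38.

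Counts were scaled by TMM, filtered with filterByExpr and fitted per tissue with a mean per genotype and state in edgeR 4.0.16 (quasi-likelihood F test, R 4.3.3), with a call at a Benjamini-Hochberg value under 0.05, adjusted over all genes tested. Responses of the tissues were compared in 1 fit of 24 libraries, and off cultures after summing their 2 libraries. SE is the absolute log2 fold change divided by the square root of F. Alternatives were DESeq2 1.42.0, limma-voom (limma 3.58.1), RLE scaling, no filter, at least 10 counts in every library, the replicate number as a block and leaving out each library; a group left with 1 library is assumed to vary like the others. Leaving out SI BRAF on replicate 1 for the markers, the pathway genes and the median was chosen after seeing the data. Replicates of each group differed by more than sampling noise. P-values of on versus off and of differences of responses measure only the spread between libraries of a culture. Those of the off cultures measure the spread between cultures of a tissue, which differ in genotype and donor.

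The feedback genes, lists and tests were chosen with earlier results of these data known. All 10 feedback genes are named, with up to 3 pathway genes per role and direction among those called whose libraries did not overlap and whose average log2 CPM was 1 or more, of which the text gives a part, the 5 genes nearest to Axin2 (average log2 CPM of at least 3 in both tissues), and Trp53. Braf is not a marker of recombination here, as its mutant allele is counted with the wild type.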

Additional observations from a re-analysis of the deposited data

Results flagged for a closer look

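The tests of a difference between responses passed 8 times (edgeR adjusted p under 0.05, log2 scale). In SI the BRAF response was below the p53 response by -1.39 for Axin2, -0.99 for Rnf43 and -1.40 for Znrf3. In COL the BRAFp53 response was below the p53 response by -0.92 for Axin2, -1.51 for Lef1 and -2.95 for Nkd1. In SI the BRAFp53 response of Axin2 was above that of BRAF by 1.10, and the BRAF response of Axin2 was less negative in COL than in SI by 0.74.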

How the results depend on the processing

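Of 28 calls of a feedback gene, 22 were kept under every setting run for them among DESeq2, limma-voom, RLE scaling, both filters and the block. For the off cultures the genotype of the culture stood in place of the block. Wif1 in COL BRAF and Nkd1 in the off cultures were not tested with at least 10 counts in every library. Of the 28 calls, 13 were kept without each library or culture and also under all of these, and 0 changed sign. Of the 10 feedback genes, those called went from 0 to 1 with at least 10 counts in every library, 3 by DESeq2, 1 by limma-voom and 3 with no filter for COL BRAF less p53, and from 3 to 5 with at least 10 counts, 5 by DESeq2 and 5 with no filter for COL BRAFp53 less p53. For COL less SI in BRAF they went from 1 to 2 with at least 10 counts, 4 by DESeq2, 0 by limma-voom and 3 with no filter. They went from 0 to 1 by DESeq2 for COL BRAFp53 less BRAF, from 0 to 1 with no filter for COL less SI in BRAFp53, from 0 to 1 by DESeq2 and 1 with no filter for COL less SI in p53, and from 1 to 2 by DESeq2 and 2 with no filter for SI BRAFp53 less BRAF. On versus off they went from 3 to 5 with no filter in SI BRAF, and from 0 to 1 with at least 10 counts, 1 by DESeq2 and 1 by limma-voom in SI BRAFp53. The cause of these shifts was not tested.

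Without each library in turn, 2 to 6 were called in COL BRAF, 2 to 6 in COL BRAFp53 and 3 to 4 in SI BRAF, and 0 to 0 in COL p53, SI BRAFp53 and SI p53. The ranges were 0 to 2 for COL BRAF less p53, 0 to 4 for COL BRAFp53 less p53, 3 to 4 for SI BRAF less p53, 0 to 2 for SI BRAFp53 less BRAF, 0 to 1 for COL less SI in BRAF, and 4 to 7 for COL off less SI off without each culture. They were 0 to 0 for COL BRAFp53 less BRAF, SI BRAFp53 less p53, and COL less SI in BRAFp53 and p53.

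Libraries with the same replicate number did not deviate together (correlations of -0.0392 to 0.0573 over the 6 cultures), so the numbers were not read as a pairing. With the replicate block, 1 gene was called for COL BRAFp53 less p53 and 0 for COL less SI in BRAF, and Lef1 in COL BRAF had an adjusted p of 0.0527 (edgeR). With the genotype of the culture as a term, Axin2 and Tcf7 were outside the threshold in COL off less SI off (edgeR adjusted p = 0.0539 and 0.0542).

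Over all genes, calls went from 27 to 324 by DESeq2, 569 with no filter and 15 with the block in COL p53, and from 0 to 65 by DESeq2, 1 by limma-voom and 155 with no filter in SI p53. For COL BRAF less p53 they went from 855 to 1895, 1958 and 528 (DESeq2, no filter, block), for COL BRAFp53 less p53 from 740 to 1701, 1855 and 478, and for COL BRAFp53 less BRAF from 172 to 1364, 1312 and 17, with 391 at 10 counts or more. They went from 1383 to 2108 by DESeq2 for SI BRAFp53 less BRAF, from 735 to 1303 by DESeq2 and 1430 with no filter for SI BRAFp53 less p53, from 693 to 1580 and 1548 for COL less SI in BRAFp53, from 23 to 162 and 488, with 39 at 10 counts or more, for COL less SI in p53, and from 5270 to 3475 with the genotype term for COL off less SI off. Leaving out 1 library also moved these counts, by over 1.5 times whichever library of the comparison was left out for COL BRAF (3776 to between 1961 without on replicate 1 and 2489 without on replicate 2), COL p53 (27 to between 0 without off replicate 1 and 56 without on replicate 2) and COL BRAF less p53 (855 to between 264 without COL p53 on replicate 2 and 1440 without COL p53 on replicate 1). On versus off, the lowest and highest counts were 1699 (without on replicate 1) and 2399 (without off replicate 1) in COL BRAFp53, 3573 (without on replicate 2) and 5343 (without on replicate 1) in SI BRAF, 887 (without on replicate 2) and 1333 (without on replicate 1) against 1941 in SI BRAFp53, and 0 in SI p53. For differences of responses they were 214 (without COL BRAFp53 on replicate 1) and 1375 (without COL p53 on replicate 1) for COL BRAFp53 less p53, 0 (without COL BRAF off replicate 1) and 279 (without COL BRAFp53 off replicate 1) for COL BRAFp53 less BRAF, 1881 (without SI p53 off replicate 2) and 3927 (without SI BRAF on replicate 1) for SI BRAF less p53, 321 (without SI BRAFp53 on replicate 2) and 653 (without SI BRAFp53 on replicate 1) for SI BRAFp53 less p53, and 597 (without SI BRAFp53 off replicate 1) and 2128 (without SI BRAF on replicate 1) for SI BRAFp53 less BRAF. For COL less SI they were 1202 and 1833 in BRAF, 235 and 723 in BRAFp53 and 3 and 46 in p53, and 2479 (without SI p53 off) and 5381 (without COL BRAF off) for the off cultures. Low counts limit Nkd1, Apcdd1, Wif1, Notum, Lef1 and Sp5 in SI, where no library held more than 75 counts of any of them.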
